A study of Homo sapiens with 9 samples.

Results

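The genes of collagens, laminins and their basement membrane partners were followed in 3 lines of SW480 colorectal cancer cells. The set holds every gene whose symbol is that of a collagen chain (COL, a number, A and a number) or of a laminin chain (LAMA, LAMB or LAMC and a number), together with NID1, NID2, HSPG2, AGRN and PXDN. It comprises 61 of the 63677 genes counted, of which 44 encode collagen chains and 12 encode laminin chains. The rule for members used names only, but the set was chosen with earlier results of these data known.

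Basement membranes are thin sheets of extracellular matrix on which epithelial cells such as those of the colon rest. Laminin, a trimer of an alpha, a beta and a gamma chain, polymerises at the cell surface, and collagen IV, a trimer of alpha chains, forms the network that gives the sheet its strength. Nidogens and the proteoglycans perlecan (HSPG2) and agrin (AGRN) tie both networks together, and peroxidasin (PXDN) forms the sulfilimine crosslinks that join collagen IV trimers. Fibrillar, FACIT, transmembrane and other collagens lie in the interstitial matrix, on fibril surfaces or in the plasma membrane. In the colon, much of the interstitial collagen is made by fibroblasts rather than by epithelial cells.

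SW480 is a cell line of a human colon adenocarcinoma and was sequenced as wild type, the reference of the comparisons. SW480-B was derived from it by transfection of a plasmid that drives human BASP1 from the CMV promoter, by G418 selection and by growth from a single cell, so that this line is 1 clone. SW480-gRNA-B-all, labelled Bsg, carries lentiviral MS2-P65-HSF1 and dCas9-VP64, was cloned from a single cell before the guides were added, and then received pooled guide RNAs to the promoter of the endogenous BASP1 gene with puromycin selection. Each line has 3 poly(A) RNA libraries, and an empty-vector or dCas9-only line was not analysed here, so that BASP1 and the cloning and selection of a line cannot be told apart. The label for treatment names BASP1 activation in all 9 samples, wild type included, and the groups were therefore taken from the line names.

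Libraries held 25238831 to 29355669 counts on genes. BASP1 was at 11.3, 8.09 and 0.688 CPM (counts scaled to the size of the library) in SW480, at 266, 269.9 and 255 CPM in SW480-B and at 166, 308 and 305 CPM in SW480-gRNA-B-all, in the order of replicates 1 to 3. It was higher than in SW480 in every library of both derived lines, with log2 fold changes of 5.29 and 5.21 and Benjamini-Hochberg adjusted p of 0.029 and 0.025 in edgeR's quasi-likelihood test. Replicates were of unequal likeness. Of all genes compared, 17.9% to 35.0% differed by over 2-fold between SW480 libraries and 15.9% to 20.4% between SW480-B libraries, against 13.6% and 13.8% between replicate 1 and the other two libraries of SW480-gRNA-B-all and 3.45% between its replicates 2 and 3. This last pair differed by more than sampling noise (chi-square per gene 3.13, where counting error alone gives about 1), but by far less than the other pairs (80.9 to 296), so that calls of this line were also fitted with both libraries summed into 1. With these summed, BASP1 in that line against SW480 had an adjusted p of 0.083. Among the 35 members tested in all 3 comparisons, SW480 replicate 1 was the lowest of its line for 23, and the median coefficient of variation was 49.6% in SW480, 36.2% in SW480-B and 23.1% in SW480-gRNA-B-all. The labels do not say whether replicates were separate cultures, and p-values therefore measure only the spread between these libraries. Coverage of the 5′ relative to the 3′ end of transcripts, which bears on long messages such as these, was 0.769 to 0.835 in all libraries.

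The epithelial markers EPCAM, KRT8, KRT18, KRT19 and CDH1 were detected in every library, with KRT8 between 3542 and 6245 CPM. The intestinal markers KRT20 and CEACAM5 stayed at or below 0.903 and 0.237 CPM in every library, and CDH17, an intestinal cadherin, fell from 1.63 to 17.4 CPM in SW480 to 0 counts in all 6 libraries of the derived lines. Of 10 fibroblast markers, the summed level was 11.8 to 31.7 CPM in SW480, 13.4 to 20.7 CPM in SW480-B and 15.3 to 19.4 CPM in SW480-gRNA-B-all, with DCN, PDGFRA and THY1 at or below 0.139 CPM throughout. PRRX1, ACTA2 and LUM reached 23.2, 18.9 and 6.16 CPM in their highest libraries. Endothelial markers summed to 0.819 to 5.92 CPM and blood cell markers to 0.983 to 6.00 CPM, with EMCN and HBB at 0 counts in all 9 libraries. VWF and LYZ reached 4.33 and 4.31 CPM in their highest libraries. In bulk RNA of this kind, fewer cells that express a gene and less RNA per cell cannot be told apart.

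SW480 cells expressed the messages of a laminin and agrin-rich matrix, with little fibrillar collagen. Per kilobase of exon, the member with the highest mean level over the 9 libraries was COL9A3, a chain of the fibril-associated collagen IX, at 56.5 ± 33.7 CPM per kb in SW480, 85.5 ± 3.35 in SW480-B and 113 ± 14.3 in SW480-gRNA-B-all (SD, n = 3 in each line here and below). AGRN followed at 37.9 ± 22.4, 43.6 ± 4.79 and 60.1 ± 6.76 CPM per kb. LAMB3, LAMA5, COL18A1, LAMB2, LAMC1, COL6A1 and LAMA3 were also among the 10 highest members. COL1A1, a chain of the major fibrillar collagen I, reached only 0.441 ± 0.0611, 0.544 ± 0.345 and 1.05 ± 0.166 CPM per kb. Its partner chain COL1A2 had 10 counts in the 9 libraries together, and COL3A1, COL8A1 and COL9A1 had none, which allows each of them up to 0.102 to 0.119 CPM per library for counting error alone. In all, 39 of the 61 members passed the filter on low counts in at least 1 comparison, and 22 did not pass in any. Of those 22, all but COL20A1 averaged under 1 CPM in every line.

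Members were called in a comparison where the adjusted p was under 0.05 and the change was over 2-fold. Between SW480-gRNA-B-all and SW480, 3 of the 37 members tested were called higher in the derived line (COL1A1, COL4A3 and PXDN) and 1 lower (COL4A1), where the calls took in 1.89% (higher) and 4.66% (lower) of 16100 genes. In SW480-B against SW480, none of the 38 members tested was called higher and 1 was called lower (COL4A1), where 0.0931% and 1.25% of 16106 genes were called. For the count of 0 by edgeR's quasi-likelihood test, 3 members were higher at an unadjusted p under 0.05 and DESeq2 called 1, COL6A3. In SW480-gRNA-B-all against SW480-B, 4 of the 36 members tested were called higher (COL4A3, COL4A4, COL4A5 and PXDN) and 2 lower (COL6A3 and COL16A1), where 2.31% and 4.37% of 15846 genes were called. DESeq2 called 5 members higher and 4 lower in the first of these comparisons (5.08% and 7.97% of all genes), 1 and 2 in the second (2.25% and 3.67%) and 6 and 5 in the third (3.25% and 5.89%). At an unadjusted p under 0.05, 10 members were higher and 4 lower (11.5% and 16.9% of all genes), 3 and 4 (8.07% and 7.76%) and 12 and 7 (10.6% and 13.8%) in the same order. Lines did not overlap in any library for 11 members that were higher and 3 that were lower (19.1% and 18.6% of all genes), for 3 and 3 (11.7% and 10.8%) and for 14 and 8 (14.9% and 15.5%). As shares of the members tested, edgeR's calls in either direction were 10.8%, 2.63% and 16.7%, beside 6.55%, 1.34% and 6.68% of all genes. These shares rest on few members, so that no excess of calls is claimed for the set. In SW480-gRNA-B-all against SW480, 0 members were called higher with its replicates 2 and 3 summed. The 3 comparisons share libraries in pairs and are not independent of each other. The median log2 fold change of the members tested was 0.43, 0.09 and 0.44 in this order, beside -0.05, -0.0039 and -0.0044 over all genes tested. The first of these medians turned to -0.14 with no filter on low counts, and the median level of the members varied between replicates of a line with an SD of up to 0.56 on the log2 scale, more than any of the 3 medians. Members that passed the filter only through the line with the higher level had to differ, so that these counts describe the members tested and not the whole set. Among the called members these were COL4A1, PXDN and, between the derived lines, COL4A5.

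**Figure D1:**
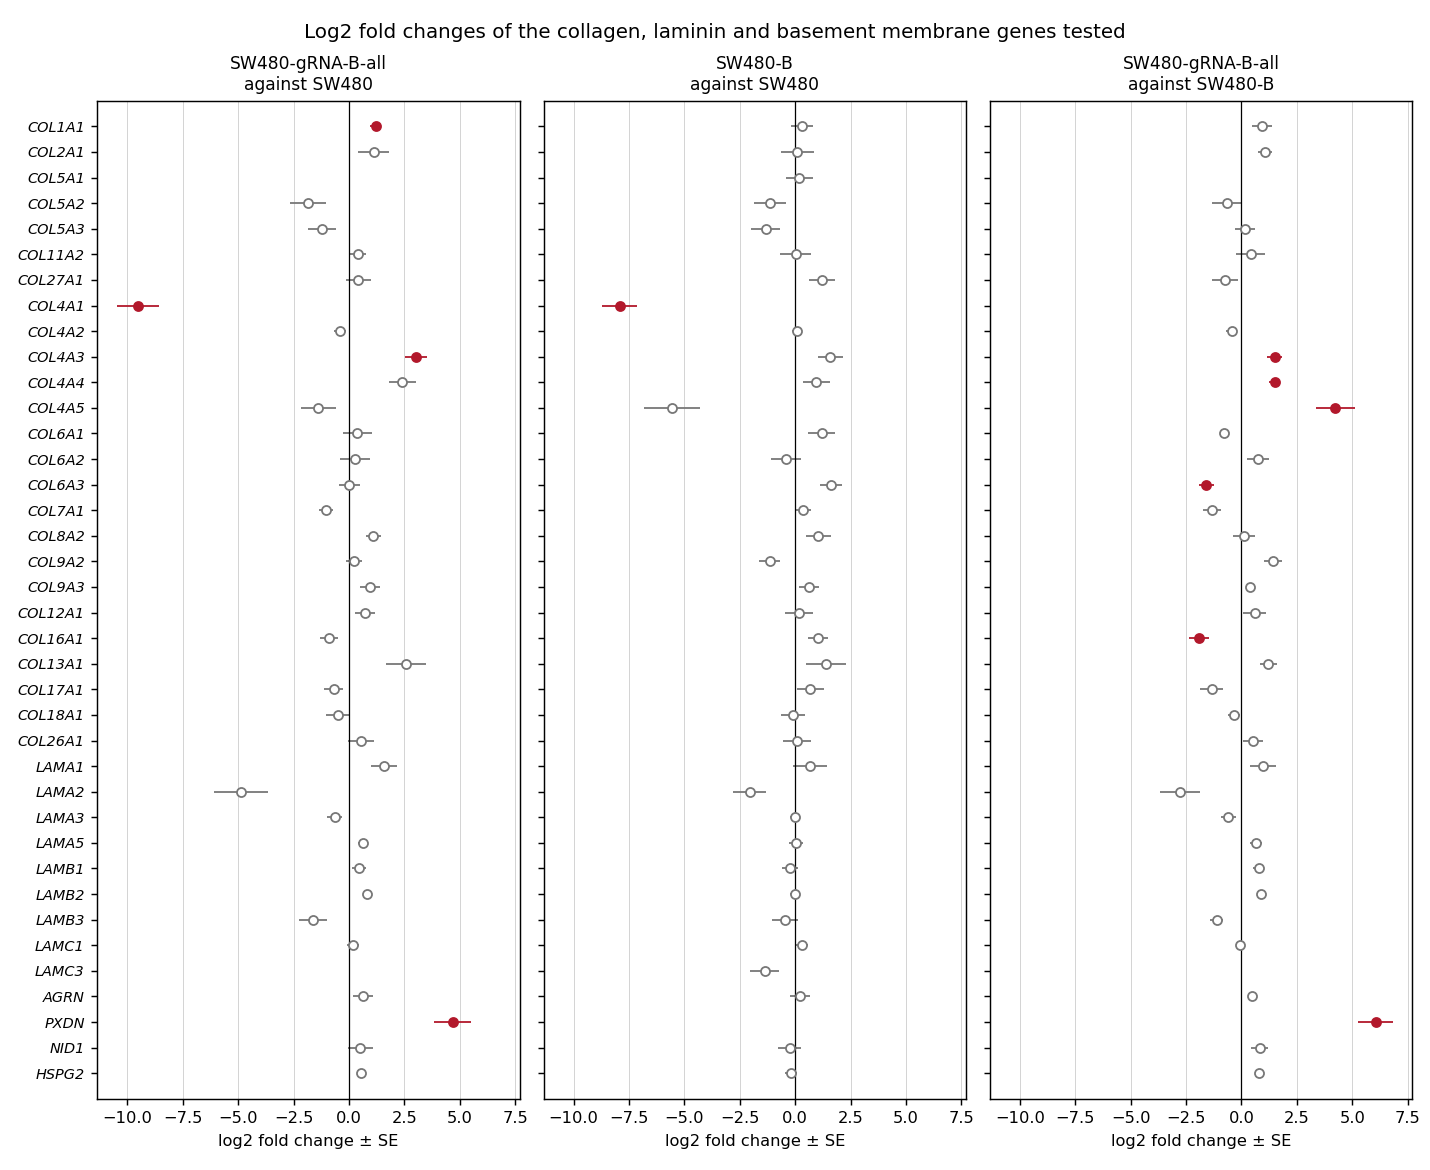
Log2 fold changes with standard errors of 38 of the 39 members tested, in each comparison, ordered by family; filled red points were called and open grey points were not, and a missing point was not tested in that comparison. COL4A1 lies at -9.53 and -7.92 in the comparisons with SW480, and PXDN at 4.68 and 6.06 in those of SW480-gRNA-B-all.

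Collagen IV chains were called in each of the 3 comparisons. The 6 chain genes lie in head-to-head pairs, each transcribed outwards from a shared stretch of promoter, and the shared stretches of the COL4A1 and COL4A2 pair and of the COL4A4 and COL4A3 pair are shown because COL4A1 was called and its partner was not, whereas both genes of the second pair were called together in 1 comparison. In GRCh37, the 126 bases between the annotated starts of the canonical transcripts of COL4A1 (minus strand) and COL4A2 (plus strand) are chr13:110959505-110959630, and the 170 bases between the outermost starts of COL4A4 (minus strand) and COL4A3 (plus strand) are chr2:228029170-228029339, both printed 5′ to 3′ on the plus strand with GC boxes (GGGCGG or its complement CCGCCC) in capitals.
COL4A1-COL4A2: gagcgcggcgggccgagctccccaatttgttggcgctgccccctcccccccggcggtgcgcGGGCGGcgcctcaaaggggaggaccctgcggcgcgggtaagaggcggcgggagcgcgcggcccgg
COL4A4-COL4A3: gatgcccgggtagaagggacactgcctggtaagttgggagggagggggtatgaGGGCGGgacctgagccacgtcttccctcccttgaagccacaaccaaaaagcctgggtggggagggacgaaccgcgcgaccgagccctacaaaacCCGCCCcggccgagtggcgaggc
The first stretch is 80.2% GC with 20 CpG dinucleotides and 1 GC box, and the second is 65.9% GC with 12 CpG and 2 GC boxes. A GC box on either strand lies in 34.6% and 38.3% of all promoters of these lengths in RefSeq (GRCh38.p14). The first stretch also holds the letters CCAAT once, as do 21.1% of promoters of its length. Neither stretch holds CTTTGAT, a form of the TCF/LEF recognition sequence through which β-catenin acts. Only 1.07% and 1.48% of promoters of these lengths hold it, so that its absence here carries little information. In windows from 250 bases before to 50 bases after each RefSeq start, which exist for 45 members, CTTTGAT on either strand was in 0 of 59 windows of members and in 2.62% of all windows, and a GC box in 61.0% and 45.0%.

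COL4A1 encodes the alpha 1 chain, which with alpha 2 makes the collagen IV of most basement membranes. In SW480 it had 2881, 1162 and 488 counts, which are 94.4, 40.3 and 17.7 CPM. SW480-B had 3, 9 and 5 counts, and SW480-gRNA-B-all had 1, 1 and 4. Every library of both derived lines thus lay far below every SW480 library, although the SW480 libraries themselves spread widely. COL4A1 passed the filter on low counts only through SW480, and so had to differ once tested. SW480 held 251 times the level of SW480-B (95% counting interval 156 to 431) and 769 times that of SW480-gRNA-B-all (353 to 2097) over the summed counts. COL4A1 fell in both lines by edgeR's quasi-likelihood test, with fitted log2 fold changes of -7.92 ± 0.80 (SE; adjusted p = 0.0094) and -9.53 ± 0.96 (adjusted p = 0.0073). At 17 counts in SW480-B and 6 in SW480-gRNA-B-all, the derived lines were not tested against each other, and their ratio was 3.07 with a counting interval of 1.15 to 9.51.

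COL4A2, the head-to-head neighbour whose product joins alpha 1 in the same trimer, showed no such loss. Its levels were 36.5, 43.8 and 47.6 CPM in SW480, 48.7, 40.2 and 45.8 in SW480-B and 21.3, 39.0 and 40.1 in SW480-gRNA-B-all. Both derived lines overlapped with SW480, and SW480-gRNA-B-all replicate 1 was the lowest library. Log2 fold changes of COL4A2 against SW480 were 0.09 ± 0.21 (adjusted p = 0.88) and -0.39 ± 0.26 (adjusted p = 0.35). The count of COL4A1 per count of COL4A2 was 0.371 to 2.59 in SW480 libraries, 0.00237 to 0.00801 in SW480-B and 0.00087 to 0.00339 in SW480-gRNA-B-all. In the annotation, the outermost start of COL4A2 lies within COL4A1 on the opposite strand, and the strand setting of the counting is not given in the sources used here.

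COL4A3 and COL4A4 encode chains of the alpha 3, alpha 4, alpha 5 network, which in the body is found mainly in kidney, lung, inner ear and eye. COL4A3 was at 0.426, 1.63 and 1.09 CPM in SW480, at 3.11, 4.16 and 2.01 in SW480-B and at 6.56, 10.6 and 9.23 in SW480-gRNA-B-all. COL4A4 was at 0.819, 4.89 and 1.74 CPM, at 4.61, 5.16 and 4.42 and at 10.4, 14.3 and 15.8 in the same order. For both genes the 3 lines kept the order SW480, SW480-B, SW480-gRNA-B-all in their means, and no library of SW480-gRNA-B-all overlapped with any other line. Against SW480-B both rose by 1.50 on the log2 scale (SE 0.34 and 0.24, adjusted p = 0.030 and 0.0093). Against SW480, COL4A3 rose by 3.04 ± 0.50 (adjusted p = 0.021), while COL4A4 had 2.41 ± 0.61 (adjusted p = 0.057). SW480-B against SW480 gave 1.57 ± 0.56 for COL4A3 (adjusted p = 0.23) and 0.95 ± 0.61 for COL4A4 (adjusted p = 0.49).

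COL4A5, the X-linked chain of the same network, took another course. It had 162, 38 and 20 counts in SW480, 0, 4 and 0 in SW480-B and 19, 29 and 40 in SW480-gRNA-B-all. SW480-B was lowest without overlap, and SW480-gRNA-B-all overlapped with SW480. Between the derived lines COL4A5 passed the filter on low counts only through SW480-gRNA-B-all, and so had to differ once tested. Over summed counts, SW480-gRNA-B-all held 20.3 times the level of SW480-B (counting interval 7.66 to 76.2), and the gene rose by 4.23 ± 0.88 on the fitted log2 scale (adjusted p = 0.024; 3.67 to 7.82 when 1 library was left out). Against SW480, the log2 fold change of SW480-B was -5.56 ± 1.25 (adjusted p = 0.084) and that of SW480-gRNA-B-all was -1.37 ± 0.78 (adjusted p = 0.28). Its neighbour COL4A6 had 9, 4 and 4 counts in SW480, 0 in each library of SW480-B and 3, 2 and 1 in SW480-gRNA-B-all, too few to test.

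Calls of collagen IV chains depended on single libraries to different degrees. In SW480-gRNA-B-all against SW480, COL4A1 was called by edgeR's quasi-likelihood test without any 1 library except SW480 replicate 2 (adjusted p = 0.050, just above the limit), and also with SW480-gRNA-B-all replicates 2 and 3 summed (adjusted p = 0.042). COL4A1 in SW480-B against SW480 was not called without any 1 of the SW480-B replicates (adjusted p = 0.055 to 0.13 with log2 fold changes of -8.39 to -7.65), fits in which at most 0.0831% of all genes were called lower. COL4A3 against SW480 was not called without SW480 replicate 2, without any 1 replicate of SW480-gRNA-B-all, or with its replicates 2 and 3 summed, at an adjusted p of 0.061 to 0.097 and log2 fold changes of 2.89 to 3.52. Against SW480-B, the summed libraries gave an adjusted p of 0.12 for COL4A3, 0.053 for COL4A4 and 0.077 for COL4A5, and the fit of all 9 libraries together gave 0.11, 0.14 and 0.068. These calls against SW480-B were also lost without SW480-gRNA-B-all replicate 2 or 3 (adjusted p = 0.051 to 0.13), that of COL4A3 without SW480-B replicate 1 or 2 (0.089 and 0.054) and that of COL4A5 without SW480-B replicate 1 (0.074).

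Of the 11 fibrillar collagen genes, 7 were tested in at least 1 comparison, and edgeR's quasi-likelihood test called 1 of them once. DESeq2 also called COL2A1 higher in SW480-gRNA-B-all against SW480-B, where edgeR with no filter on low counts called COL5A1 lower. COL1A1 was at 3.34, 4.24 and 4.35 CPM in SW480, at 8.34, 4.05 and 2.30 in SW480-B and at 7.88, 9.59 and 10.9 in SW480-gRNA-B-all. All 3 SW480-gRNA-B-all libraries exceeded SW480, whereas SW480-B replicate 1 lay within the range of SW480-gRNA-B-all. COL1A1 rose in SW480-gRNA-B-all against SW480 by 1.21 ± 0.25 on the log2 scale (adjusted p = 0.036). It was no longer called with the libraries of SW480-gRNA-B-all summed (adjusted p = 0.16), without SW480 replicate 2 or any 1 replicate of SW480-gRNA-B-all (0.074 to 0.18), with the replicate number as a block (0.051), with offsets for GC content and length (0.052) or in the fit of all 9 libraries (0.094). The remaining fibrillar genes were low, with COL2A1 and COL27A1 at up to 5.77 and 10.8 CPM and COL5A2, COL5A3 and COL11A2 at up to 2.88 CPM.

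Collagen VI, a beaded microfibril of the pericellular matrix, is made of 3 chains, here almost solely COL6A1. COL6A1 was at 9.40, 61.9 and 82.2 CPM in SW480, at 124, 123 and 98.6 in SW480-B and at 65.4, 67.0 and 71.5 in SW480-gRNA-B-all. SW480-B libraries lay above all others. COL6A2, its neighbour on chromosome 21, reached 3.18 CPM at most, and COL6A1 had 19.1 to 164 counts for each count of COL6A2 in the 9 libraries. COL6A3 was at 0.688, 2.15 and 1.67 CPM in SW480, at 3.31, 5.41 and 5.14 in SW480-B and at 1.05, 1.76 and 1.83 in SW480-gRNA-B-all. Both genes were thus highest in SW480-B without overlap. COL6A3 fell in SW480-gRNA-B-all against SW480-B by 1.58 on the log2 scale (SE 0.35, adjusted p = 0.028), and COL6A1 by 0.77 (SE 0.16, adjusted p = 0.023), a change of less than 2-fold. Against SW480, SW480-B had log2 fold changes of 1.63 ± 0.50 for COL6A3 (adjusted p = 0.18) and 1.19 ± 0.61 for COL6A1 (adjusted p = 0.39), and SW480-gRNA-B-all had 0.01 ± 0.48 and 0.39 ± 0.64 (adjusted p = 0.99 and 0.72).

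Among the FACIT collagens, which sit on the surface of fibrils, 4 of 10 genes were tested. COL16A1 was at 46.3, 22.6 and 40.4 CPM in SW480, at 118, 67.4 and 38.5 in SW480-B and at 29.8, 12.8 and 17.3 in SW480-gRNA-B-all. The derived lines did not overlap with each other, while each overlapped with SW480. COL16A1 fell in SW480-gRNA-B-all against SW480-B by 1.91 on the log2 scale (SE 0.45, adjusted p = 0.036). With SW480-gRNA-B-all replicates 2 and 3 summed, COL16A1 and COL6A3 were not called by edgeR's quasi-likelihood test (adjusted p = 0.12 and 0.10). COL16A1 was also not called without SW480-B replicate 1 or 2 or SW480-gRNA-B-all replicate 2 or 3 (0.11 to 0.13) or with no filter on low counts (0.16), nor COL6A3 in the fit of all 9 libraries (0.081) or without SW480-B replicate 2 or any 1 replicate of SW480-gRNA-B-all (0.052 to 0.11). COL9A3 was at 102, 292 and 427 CPM in SW480, at 404, 406 and 433 in SW480-B and at 468, 568 and 601 in SW480-gRNA-B-all. Log2 fold changes of COL9A3 were 0.62 ± 0.44 and 0.97 ± 0.45 against SW480 (adjusted p = 0.54 and 0.21). COL20A1 had 68, 41 and 6 counts in SW480 and 1 to 8 in each library of the derived lines, and COL14A1 had 47, 13 and 2 in SW480 and 0 or 1 in each of the others.

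COL13A1, which encodes a transmembrane collagen of cell adhesion sites, was chosen for mention after its values were seen. It was at 1.47, 12.7 and 38.0 CPM in SW480, at 18.9, 60.7 and 56.7 in SW480-B and at 94.9, 110.2 and 110.4 in SW480-gRNA-B-all. No library of SW480-gRNA-B-all overlapped with the other lines, but the SW480 libraries spread so widely that the log2 fold change of 2.57 ± 0.92 was not called (adjusted p = 0.13). Against SW480-B it was 1.21 ± 0.37 (adjusted p = 0.086), and DESeq2 called the gene in both comparisons. COL18A1, the collagen of basement membranes from which endostatin is cut, was at 58.9, 216 and 360.1 CPM in SW480, at 146, 159 and 278 in SW480-B and at 121, 165 and 172 in SW480-gRNA-B-all, and its lines overlapped in every comparison. COL7A1, the anchoring fibril collagen beneath epithelia, was at 6.81 to 13.3 CPM in SW480-gRNA-B-all, below the 14.9 to 36.6 CPM of both other lines, with log2 fold changes of -1.03 ± 0.32 and -1.34 ± 0.40 (adjusted p = 0.095 and 0.078). DESeq2 called COL7A1 lower in both comparisons (adjusted p = 0.028 and 0.0088). Against SW480-B, edgeR's quasi-likelihood test also called it with no filter, the offsets or the replicate block (0.0061 to 0.038). With SW480-gRNA-B-all replicates 2 and 3 summed it was not called (0.28 and 0.25).

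**Figure D2:**
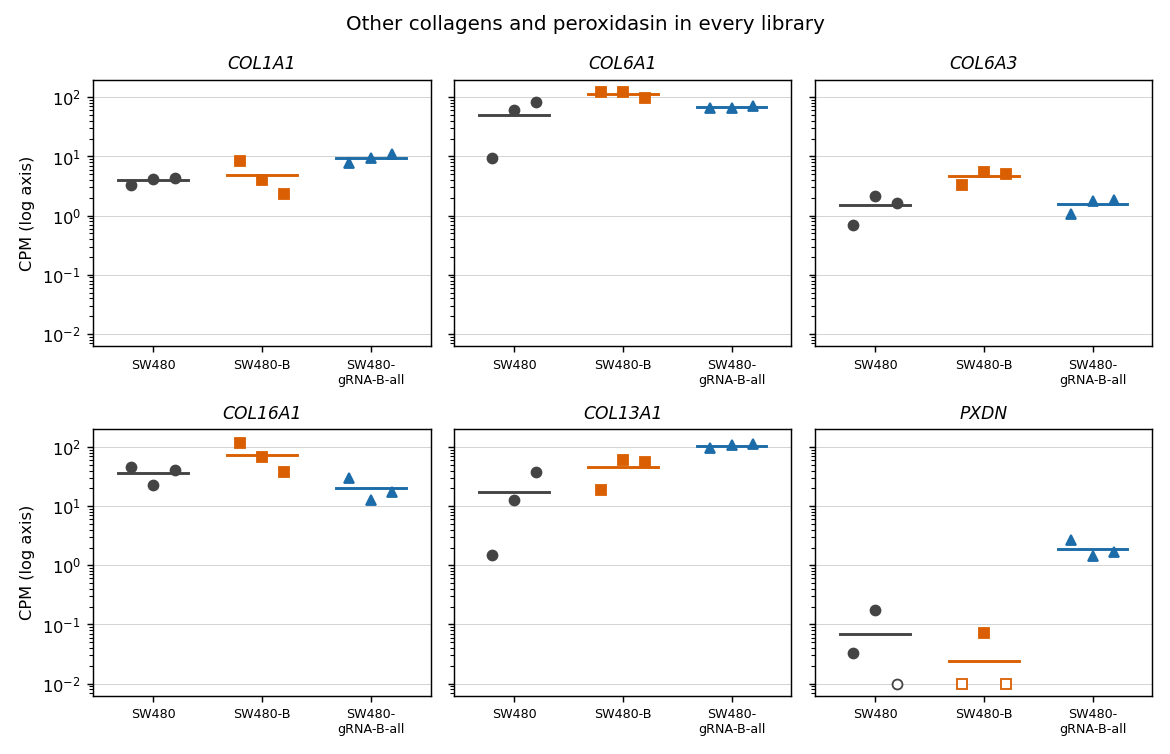
Level of 5 other collagen genes and of PXDN in each library, in CPM on a log axis, drawn as for collagen IV with a bar for the mean of 3 libraries and open symbols for 0 counts. COL6A1 and COL6A3 are highest in SW480-B, COL16A1 in SW480-gRNA-B-all lies below SW480-B, and PXDN is at 1.42 to 2.64 CPM in SW480-gRNA-B-all and at most 0.174 CPM elsewhere.

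Laminin chains were among the most abundant members, and none of the 9 or 10 tested in a comparison was called by edgeR's quasi-likelihood test in the main fits. Among alternative fits of that test, RLE size factors, no filter, the offsets and the replicate block called LAMB3 lower in SW480-gRNA-B-all against SW480-B (adjusted p = 0.0038 to 0.048). With SW480-gRNA-B-all replicates 2 and 3 summed it was not called (0.19). The block also called LAMA2 lower in both comparisons of SW480-gRNA-B-all (0.015 and 0.020). At an unadjusted p under 0.05, SW480-gRNA-B-all had 3 laminin genes higher and 2 lower than SW480 (11.5% and 16.9% of all genes), and likewise 3 and 2 against SW480-B (10.6% and 13.8%), and SW480-B had 0 and 1 against SW480 (8.07% and 7.76%). DESeq2 called 2 laminin genes lower in each comparison of SW480-gRNA-B-all, LAMA2 and LAMB3 (7.97% of all genes against SW480 and 5.89% against SW480-B), and none in SW480-B against SW480 (3.67%). In both comparisons of SW480-gRNA-B-all, LAMA2 passed the filter on low counts only through the other line, and so had to differ once tested.

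Beta chain shares in SW480-gRNA-B-all lay apart from those of SW480 and SW480-B, which were alike in their means. LAMB2, the beta 2 chain, was at 81.4, 100.3 and 119 CPM in SW480, at 121, 82.7 and 92.1 in SW480-B and at 197, 167 and 182 in SW480-gRNA-B-all. Every SW480-gRNA-B-all library lay above the other 6. LAMB2 rose in SW480-gRNA-B-all by less than 2-fold, by 0.82 ± 0.18 against SW480 and 0.87 ± 0.19 against SW480-B on the log2 scale (adjusted p = 0.037 and 0.029). With SW480-gRNA-B-all replicates 2 and 3 summed these were 0.13 and 0.098, and without 1 library they reached 0.15 and 0.11. LAMB3, the beta 3 chain of the epithelial laminin-332 of hemidesmosomes, was at 553, 175 and 100.4 CPM in SW480, at 234, 233 and 137 in SW480-B and at 127, 76.4 and 75.6 in SW480-gRNA-B-all. SW480 replicate 1 was far above the others of its line and SW480-gRNA-B-all overlapped with SW480 but not with SW480-B. Log2 fold changes of LAMB3 were -1.63 ± 0.64 against SW480 and -1.12 ± 0.29 against SW480-B (adjusted p = 0.15 and 0.050, just above the limit). Per kilobase, LAMB3 made up 68.7% ± 19.8 of beta chain messages in SW480, 70.7% ± 7.41 in SW480-B and 38.3% ± 5.27 in SW480-gRNA-B-all, and LAMB2 made up 25.0% ± 15.7, 24.1% ± 5.06 and 52.0% ± 4.86. The range of the LAMB3 share in SW480-gRNA-B-all, 34.2% to 44.2%, lay below that of SW480 (50.3% to 89.7%) and SW480-B (62.8% to 77.6%), a description without a test.

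Alpha chains were almost solely LAMA5 and LAMA3. LAMA5, the alpha chain of the laminins of adult epithelia, was at 234, 347 and 401 CPM in SW480, at 455, 225 and 310.4 in SW480-B and at 545, 481 and 552 in SW480-gRNA-B-all. LAMA3, the partner of LAMB3 in laminin-332, was at 112, 108 and 91.7 CPM, at 118, 108 and 81.2 and at 108, 48.3 and 48.3 in the same order. SW480-gRNA-B-all was highest for LAMA5 without overlap, with log2 fold changes of 0.65 ± 0.22 against SW480 and 0.66 ± 0.27 against SW480-B (adjusted p = 0.11 and 0.18). For LAMA3 its replicate 1 was alike to the other lines and its replicates 2 and 3 were lower (-0.65 ± 0.34 against SW480, adjusted p = 0.25). Per kilobase, LAMA5 made up 74.8% ± 7.29, 75.4% ± 6.82 and 88.7% ± 4.60 of alpha chain messages in the 3 lines in the same order. LAMA2, the alpha chain of muscle and nerve laminin, was at 1.05 to 8.22 CPM in SW480, 0.647 to 1.73 CPM in SW480-B and 0 to 0.406 CPM in SW480-gRNA-B-all, where its log2 fold change against SW480 was -4.86 ± 1.21 (adjusted p = 0.055). In this comparison LAMA2 passed the filter on low counts only through SW480, and so had to differ once tested.

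LAMC1, the gamma 1 chain found in most laminins, was at 73.6, 151 and 157 CPM in SW480, at 138, 165 and 163 in SW480-B and at 153, 144 and 147 in SW480-gRNA-B-all. The lines overlapped for LAMC1 in every comparison, and its adjusted p was 0.65 or higher in all 3.

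**Figure D3:**
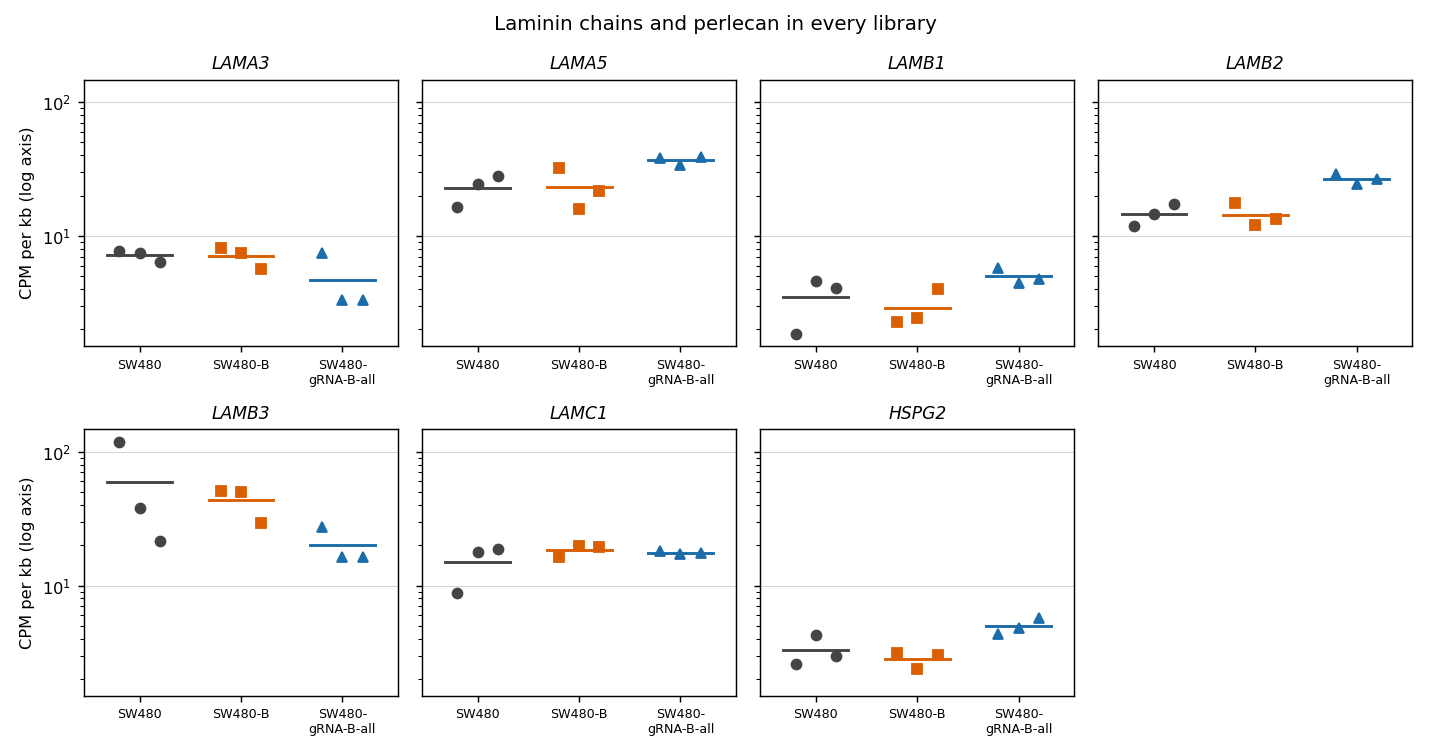
Level of 6 laminin chain genes and of HSPG2 (perlecan) in each library, in CPM per kilobase of exon on a log axis, with 3 libraries per line and a bar for the mean. LAMB2 and LAMA5 are highest in SW480-gRNA-B-all, LAMB3 spreads from 100.4 to 553 CPM between SW480 libraries before division by length, and LAMC1 overlaps between lines.

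Of the proteins that link or crosslink both networks, only PXDN was called. PXDN had 1, 5 and 0 counts in SW480, 0, 2 and 0 in SW480-B and 78, 42 and 50 in SW480-gRNA-B-all, the last being 2.64, 1.42 and 1.70 CPM. It was thus near the limit of detection in both other lines and low, but present in each library, in SW480-gRNA-B-all. PXDN passed the filter on low counts only through this line and had to differ once tested, so that its calls are no separate support. Over summed counts SW480-gRNA-B-all held 27.8 times the level of SW480 (counting interval 12.5 to 76.9) and 78.5 times that of SW480-B (21.4 to 653). PXDN rose by 4.68 ± 0.83 on the fitted log2 scale against SW480 (adjusted p = 0.025) and by 6.06 ± 0.79 against SW480-B (adjusted p = 0.0043). The call against SW480-B held without any 1 library, with fitted log2 fold changes of 5.53 to 8.77, and with replicates 2 and 3 summed (adjusted p = 0.014). The call against SW480 was lost with them summed (adjusted p = 0.087), without SW480 replicate 2 and without any 1 replicate of SW480-gRNA-B-all (0.061 to 0.095).

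HSPG2 was at 46.9, 77.7 and 53.7 CPM in SW480, at 56.5, 43.3 and 55.0 in SW480-B and at 78.7, 87.7 and 103 in SW480-gRNA-B-all. It rose by 0.79 ± 0.18 on the log2 scale against SW480-B (adjusted p = 0.032, and 0.14 with SW480-gRNA-B-all replicates 2 and 3 summed), less than 2-fold, and had 0.56 ± 0.21 against SW480 (adjusted p = 0.15). AGRN was at 152, 440.2 and 631 CPM in SW480, at 438, 440.2 and 528 in SW480-B and at 566, 669.6 and 706 in SW480-gRNA-B-all. SW480 replicate 1 was far below all other libraries, and the log2 fold change against SW480 was 0.64 ± 0.45 for SW480-gRNA-B-all (adjusted p = 0.38) and 0.22 ± 0.44 for SW480-B (adjusted p = 0.84). NID1 ranged from 8.26 to 44.8 CPM with overlap between all lines, and NID2 had 18 counts in the 9 libraries together.

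Calls among the enzymes and chaperones that modify and fold collagen chains were near the background, with 5.0%, 0% and 10.0% called in the 3 comparisons beside 6.55%, 1.34% and 6.68% of all genes. Of 20 tested, SW480-gRNA-B-all had 1 called lower against SW480 and 2 against SW480-B. None was called in SW480-B against SW480 by edgeR's quasi-likelihood test. There, 1 was higher and 2 lower at an unadjusted p under 0.05 (8.07% and 7.76% of all genes), and DESeq2 called 2 lower (3.67%). COLGALT2, a collagen galactosyltransferase, was at 12.0 to 19.2 CPM in SW480, 15.1 to 27.3 in SW480-B and 5.02 to 7.85 in SW480-gRNA-B-all. It fell by 1.43 on the log2 scale against SW480 (SE 0.30, adjusted p = 0.036) and by 1.85 against SW480-B (SE 0.30, adjusted p = 0.0095). P4HB, the shared subunit of prolyl 4-hydroxylase and a disulfide isomerase, fell by 1.10 against SW480-B (SE 0.20, adjusted p = 0.014). Its means were 829 CPM in SW480, 1339 in SW480-B and 627 in SW480-gRNA-B-all, and against SW480 it was not called (-0.45 ± 0.19, adjusted p = 0.17). Of 11 processing and crosslinking enzymes tested (procollagen proteinases, lysyl oxidases and others), none was called in any comparison. At an unadjusted p under 0.05, 0, 2 and 2 of them were higher (11.5%, 8.07% and 10.6% of all genes) and 0, 0 and 3 lower (16.9%, 7.76% and 13.8%) in SW480-gRNA-B-all against SW480, SW480-B against SW480 and SW480-gRNA-B-all against SW480-B. DESeq2 called 2, both lower in the last comparison (5.89%).

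Among receptors for collagen and laminin, SW480-gRNA-B-all had 1 of 15 tested called higher and 1 lower against SW480 (1.89% and 4.66% of all genes), with 12 of the 15 log2 fold changes above 0 (7522 of 16100 over all genes), and 2 called higher and 1 lower against SW480-B (2.31% and 4.37%). ITGA11, a collagen receptor subunit, had 4 counts in SW480, 8 in SW480-B and 46 in SW480-gRNA-B-all over 3 libraries each, and rose by 3.34 ± 0.49 on the fitted log2 scale against SW480 and 2.35 ± 0.50 against SW480-B (adjusted p = 0.016 and 0.024). Over summed counts, its ratio was 11.3 (counting interval 4.12 to 43.2) and 5.31 (2.48 to 13.0). ITGA11 passed the filter on low counts only through SW480-gRNA-B-all, and so had to differ once tested. ITGA1, another collagen receptor subunit, was at 53.5 to 108 CPM in SW480, 48.4 to 191 in SW480-B and 15.5 to 29.6 in SW480-gRNA-B-all. It fell by 1.95 against SW480 (SE 0.35, adjusted p = 0.026) and by 2.44 against SW480-B (SE 0.48, adjusted p = 0.019). BCAM, a receptor for laminins with the LAMA5 chain, rose by 1.65 ± 0.24 against SW480-B (adjusted p = 0.0063) to 71.6 to 117 CPM, beyond the 23.8 to 33.4 CPM of that line. SW480 was at 13.3 to 72.7 CPM for BCAM and overlapped with SW480-gRNA-B-all, where the gene was not called (1.03 ± 0.54, adjusted p = 0.26). None of the 14 receptors tested in SW480-B against SW480 was called, where 0.0931% (higher) and 1.25% (lower) of all genes were. At an unadjusted p under 0.05, 5 were higher and 0 lower (8.07% and 7.76% of all genes), and DESeq2 called 1 higher (2.25%).

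Among 32 other basement membrane and matrix proteins, 18 to 20 were tested. HMCN1, an extracellular protein of epithelial junctions with the matrix, had 375 counts in the SW480 libraries, 1 in SW480-B and 3 in SW480-gRNA-B-all. It passed the filter on low counts only through SW480, and so had to differ once tested. The level in SW480 was 353 times that of SW480-B (counting interval 62.9 to 13963) and 127 times that of SW480-gRNA-B-all (43.2 to 620.1), and the gene fell in both (fitted log2 fold changes -7.99 ± 1.20 and -6.85 ± 1.10, adjusted p = 0.025 and 0.020). FREM2, a subunit of the Fraser complex beneath epithelia, was at 13.0 to 24.8 CPM in SW480, 1.35 to 1.91 in SW480-B and 2.03 to 2.88 in SW480-gRNA-B-all, and fell by 3.52 (SE 0.37, adjusted p = 0.0094) and fell by 2.93 (SE 0.32, adjusted p = 0.0080).

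Between the derived lines, 4 of 18 such genes were called higher in SW480-gRNA-B-all and 4 lower, beside 2.31% and 4.37% of all genes. FN1, fibronectin, was at 32.2, 217 and 155 CPM in SW480, at 238, 203 and 175 in SW480-B and at 19.5, 40.5 and 42.0 in SW480-gRNA-B-all. It fell by 2.61 on the log2 scale against SW480-B (SE 0.30, adjusted p = 0.0030), while SW480 replicate 1 lay within the range of SW480-gRNA-B-all. The matrix adaptor TGFBI fell by 1.25 (SE 0.20, adjusted p = 0.0098), the integrin ligand NPNT by 2.42 (SE 0.41, adjusted p = 0.011) and the dystroglycan ligand EGFLAM by 2.87 (SE 0.47, adjusted p = 0.0098). EGFLAM passed the filter on low counts only through SW480-B, and so had to differ once tested. NTN1, a laminin-related guidance factor, rose by 2.20 ± 0.39 (adjusted p = 0.013), FBLN5 of elastic fibres by 1.92 ± 0.26 (adjusted p = 0.0050), FBLN1 by 1.25 ± 0.27 (adjusted p = 0.026) and MATN3 by 1.40 ± 0.33 (adjusted p = 0.037). FBLN5 also rose against SW480, by 1.76 ± 0.37 (adjusted p = 0.036). FN1, TGFBI, NPNT, EGFLAM, NTN1, FBLN1 and MATN3 were not called in SW480-gRNA-B-all against SW480 by edgeR's quasi-likelihood test (adjusted p = 0.059 to 0.75). For TGFBI and NPNT the log2 fold changes there were -0.27 ± 0.50 and -0.79 ± 0.44, with overlap. The mean of TGFBI was 129 CPM in SW480, 260 in SW480-B and 110 in SW480-gRNA-B-all, and that of NPNT was 3.30, 10.4 and 1.94 CPM. In this comparison of derived lines, BCAM, FBLN5, FN1 and TGFBI were called without any 1 library, and the other related genes lost the call without at least 1 of the libraries SW480-B replicates 1 to 3 or SW480-gRNA-B-all replicates 1 to 3 (adjusted p of at most 0.13). The related genes called against SW480 lost the call without SW480 replicate 2, any 1 replicate of the derived line or, for COLGALT2 alone, SW480 replicate 1 (adjusted p of at most 0.22), with FREM2 still called without SW480-gRNA-B-all replicate 1 and, in SW480-B, without SW480 replicate 2. With SW480-gRNA-B-all replicates 2 and 3 summed, COLGALT2, ITGA1, ITGA11, FBLN5 and HMCN1 lost the call against SW480 (adjusted p = 0.15, 0.11, 0.083, 0.14 and 0.084), and FREM2 kept it (0.049). Against SW480-B the summed fit lost FBLN1, MATN3, P4HB, ITGA1, ITGA11, EGFLAM and NPNT (adjusted p of 0.050 to 0.12) and called BCAM, COLGALT2, FBLN5, FN1, NTN1 and TGFBI (0.010 to 0.049).

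Markers of cell identity moved between the lines beside these genes, and their part in the results was not tested. Of the 8, 9 and 7 colon epithelial markers tested, CDH17, VIL1 and CDX2 were called lower in SW480-gRNA-B-all against SW480, CDH17 and VIL1 in SW480-B against SW480 and CDX2 in SW480-gRNA-B-all against SW480-B. Of all genes, 4.66%, 1.25% and 4.37% were called lower in the same order. CDX2, an intestinal transcription factor, was at 28.9 to 41.7 CPM in SW480, at 58.3 to 67.8 CPM in SW480-B and at 2.41 to 5.51 CPM in SW480-gRNA-B-all, and 4 of the 9 colon markers tested in SW480-B against SW480 had log2 fold changes above 0. VIL1, villin of the brush border, was at 98.3 to 327 CPM in SW480, 29.5 to 36.1 in SW480-B and 6.45 to 21.4 in SW480-gRNA-B-all. Of the fibroblast markers tested, LUM was called lower in both derived lines against SW480, from 0.978 to 6.16 CPM to 0.0358 CPM or less, and PRRX1 in SW480-gRNA-B-all against SW480-B. In these comparisons CDH17 and LUM passed the filter on low counts only through SW480, and PRRX1 only through SW480-B. These markers thus had to differ once tested, and their calls are no separate support. ACTA2, the smooth muscle and myofibroblast actin, was at 13.4 to 18.9 CPM in SW480-gRNA-B-all, above the 1.64 to 10.2 CPM of both other lines, and was called higher against SW480-B by DESeq2 but not by edgeR's quasi-likelihood test. The SW480 library with the highest COL4A1, replicate 1, was also the highest of its line for EPCAM, CDH17, VIL1, LUM and PRRX1, and the lowest for COL9A3, AGRN and COL6A1. Other markers went the other way, and the same library was the lowest of its line for KRT8, KRT18, KRT19, CDH1, CDX2 and ACTA2.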

How the data were processed

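Stranded poly(A) RNA libraries of the 3 lines (n = 3 each) were sequenced and aligned to GRCh37 by the authors, who deposited whole-number counts of fragments per Ensembl gene, not normalized, with 1 table per library, and a file of transcript coverage metrics per library. The metrics' 5′ to 3′ ratio, a median bias over transcripts, was deposited by the authors and read as given. The counting program and its strand setting are not given in the sources used here. Lines that name no gene held 5.22% to 9.93% (no gene) and 3.09% to 3.44% (more than 1 gene) of fragments and were left out. Symbols were matched for 55665 of 63677 identifiers, with 99.4% of counts. PECAM1 and 5 older names of collagen enzymes were not matched.

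Lines were compared in pairs, with the 6 libraries of a pair in 1 fit, by edgeR 4.0.16 in R 4.3.3 (filterByExpr with a least count of 10 and a least total of 15, TMM, glmQLFit robust, glmQLFTest), with Benjamini-Hochberg adjustment over all genes tested. CPM used TMM factors over 9 libraries, and standard errors are the size of the log2 fold change over the root of the F statistic. Ratios of summed counts carry 95% counting intervals, and a count of 0 was limited at 3 counts. These intervals and limits cover counting error only. Tests were tried on simulated counts with 200 changed genes. Alternatives were RLE size factors, no filter, at least 1 CPM in at least 3 libraries, 1 fit of 9 libraries, the replicate number as a block, offsets for GC content and exon length, DESeq2 1.42.0, each library left out and SW480-gRNA-B-all replicates 2 and 3 summed.

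Deviations of same-numbered libraries from the means of their lines correlated at 0.302, 0.352 and 0.406 for SW480-B and SW480. For SW480-gRNA-B-all they correlated at 0.303, -0.032 and 0.283 with SW480 and at 0.253, -0.104 and 0.268 with SW480-B. The labels state no pairing, and the main fits used none. Levels are given per library for members called in at least 1 comparison and for the 10 with the highest mean CPM per kb, and called genes of related lists are named. 1 member is not reported here. Members and lists were chosen with earlier results of these data known. Promoter stretches were read from the GRCh37 genome and windows from RefSeq.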

Additional observations from a re-analysis of the deposited data

Results flagged for a closer look

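The 2 lines with BASP1 were compared directly, and 6 members differed between them in edgeR's quasi-likelihood test (Benjamini-Hochberg adjusted over 15846 genes). In SW480-gRNA-B-all against SW480-B, PXDN differed by 6.06, COL4A5 by 4.23, COL4A3 by 1.50 and COL4A4 by 1.50 on the log2 scale, and COL16A1 by -1.91 and COL6A3 by -1.58. The libraries of these lines did not overlap for any of the 6 genes, where 14.9% and 15.5% of all genes tested were higher and lower without overlap. The 6 genes were picked by their calls in the same libraries, so that the lack of overlap gives no further support. PXDN and COL4A5 passed the filter on low counts only through SW480-gRNA-B-all, and so had to differ once tested. With SW480-gRNA-B-all replicates 2 and 3 summed, PXDN was the member still called.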

How the results depend on the processing

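Counts of members called rest on few libraries. In SW480-gRNA-B-all against SW480, 3 members were called higher and 1 lower. DESeq2 called 5 and 4, the fit with no filter called 3 lower, the fit of all 9 libraries called 3 lower, and summing replicates 2 and 3 of SW480-gRNA-B-all left 0 higher (none of the 20 genes called higher in that fit was a member). Leaving out each library gave 0 to 5 higher and 0 to 7 lower. In SW480-B against SW480 (0 higher and 1 lower), DESeq2 called 1 and 2, the fit with no filter called 3 lower and the fit of 9 libraries 2 lower, and leaving out each library gave 0 higher throughout and 0 to 5 lower. In SW480-gRNA-B-all against SW480-B (4 higher and 2 lower), the fit of 9 libraries called 1 and 1, the summed libraries 1 and 0, the fit with no filter 4 lower, offsets for GC content and exon length 4 lower and DESeq2 5 lower. Leaving out each library gave 1 to 5 higher and 0 to 5 lower. Over all genes tested, the alternatives other than DESeq2 called 0.0424% to 10.1% lower and 0.00606% to 5.7% higher for SW480-gRNA-B-all against SW480, up to 4.12% and 1.34% for SW480-B against SW480, and 1.74% to 5.75% and 0.826% to 3.71% between the derived lines. The cause of these changes was not tested. COL4A4 in SW480-gRNA-B-all against SW480 passed the threshold by DESeq2, with no filter, with the offsets, with the block and in the fit of 9 libraries.

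The median log2 fold change of the members tested against SW480 was 0.43 in SW480-gRNA-B-all and -0.14 with no filter, where more low genes enter, and leaving out each library gave 0.13 to 0.61. It ran from -0.15 to 0.27 for SW480-B against SW480 and from 0.34 to 0.57 for SW480-gRNA-B-all against SW480-B.

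When replicate numbers entered as a block, SW480-gRNA-B-all had 2 members called lower against SW480 and 5 against SW480-B. In these pairs of lines replicate 2 did not match best with its own number (correlations of -0.032 and -0.104). No label states that equal numbers pair libraries. In SW480-B against SW480, where each library matched best with its own number, the block changed no call of a member. There it reversed COL18A1 to 0.15, LAMA5 to -0.014 and COL11A2 to -0.25, and with the offsets for GC content and exon length gave 0.14 for COL18A1, -0.041 for LAMA5 and -0.0032 for COL1A1.

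No called gene changed direction. Of the members with levels given per library and not called, LAMA5 in SW480-B against SW480 turned to -0.0029 with no filter, -0.010 in the fit of 9 libraries and -0.043 with offsets, and COL6A3 in SW480-gRNA-B-all against SW480 to -0.082 with the summed libraries. Leaving out each library gave log2 fold changes on both sides of 0 when SW480-gRNA-B-all was set against SW480, for COL18A1 (-0.92 to 0.14), COL6A1 (-0.088 to 0.92), COL6A3 (-0.31 to 0.38) and LAMC1 (-0.062 to 0.38). Counting the other members, log2 fold changes took both signs for 6 of 36 members in that comparison, 16 of 37 in SW480-B against SW480 and 4 of 35 between the derived lines, none of them called. In SW480-B against SW480 these included AGRN (-0.17 to 0.68), COL18A1 (-0.54 to 0.52), COL1A1 (-0.32 to 0.65), LAMA3 (-0.13 to 0.13), LAMA5 (-0.28 to 0.24), LAMB2 (-0.19 to 0.12) and LAMB3 (-0.87 to 0.57). At these depths, 3 counts are 0.102 to 0.119 CPM, so that differences among the 11 members with at most 10 counts in all were not detectable.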
